A study of Homo sapiens with 32 samples.

Results

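Aminoacyl-tRNA synthetases, the enzymes that load each tRNA with its amino acid, were followed over 4 treatments of the multiple myeloma cell line MM.1S, which is of human origin. The 35 genes examined are nuclear genes listed by symbol, 19 for enzymes that work in the cytosol and 16 for enzymes imported into mitochondria, of 24249 gene IDs measured. Each symbol was found on exactly 1 gene ID, and all 35 genes passed the filter on low values. Cells received a 1 h pulse of either the vehicle DMSO or carfilzomib (Cfz), an inhibitor of the proteasome. Fresh medium with either DMSO or ATRA (all-trans retinoic acid, a ligand of nuclear retinoic acid receptors, at 10 µM) followed for 12 h. The 8 RNA-seq libraries are 3 with DMSO throughout, 3 with a DMSO pulse and then ATRA, 1 with a Cfz pulse and then DMSO (called Cfz), and 1 with a Cfz pulse and then ATRA (called ATRA+Cfz). No source used here gives the dose of carfilzomib. All libraries come from this one cell line.

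A synthetase activates its amino acid with ATP and transfers it to the matching tRNA, which then enters the ribosome. In human cells most cytosolic and mitochondrial synthetases are encoded by separate genes, marked by a final 1 or 2 in the symbol, and several cytosolic enzymes are held together with 3 scaffold proteins in the multisynthetase complex. When amino acids run short or the endoplasmic reticulum is stressed, phosphorylation of the translation factor eIF2 raises the transcription factor ATF4, and many cytosolic synthetase genes are known ATF4 targets, a program called the amino acid response. Myeloma cells secrete large amounts of immunoglobulin and so carry a heavy load of protein synthesis.

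Depth was 14136937 to 17155331 reads per library, and the synthetases held 83 to 13119 reads each. Values are FPM, fragments scaled to the same total in every library, and 3 reads correspond to 0.175 to 0.212 FPM. DMSO 3 stood apart from the other controls. The 13 protein-coding genes of the mitochondrial genome took 3.58% of the reads in DMSO 1 and 3.54% in DMSO 2, but 5.22% in DMSO 3 (5.21% to 5.23%, 95% Wilson interval). They took 3.13% to 3.34% in the ATRA libraries, 4.76% with Cfz (4.75% to 4.77%) and 5.06% with ATRA+Cfz (5.05% to 5.08%), and intervals cover counting error only. The part of this share in the results below was not tested, and counts that change without DMSO 3 are given beside the main ones. The plasma cell markers SDC1, XBP1, PRDM1, IRF4 and TNFRSF17 lay at 179.5 FPM or more in every library. They were not constant. With ATRA, XBP1 (1.56 on the log2 scale), SDC1 (1.54), TNFRSF17 (0.86) and PRDM1 (0.58) rose and IRF4 (-0.44) fell. Of 12 listed markers of other cells (epithelial, stromal, myeloid, and T or NK cells), 8 were found, and none exceeded 3.34 FPM. That value was EPCAM with Cfz, against 0.292 to 0.805 FPM with DMSO and 1.56 FPM with ATRA+Cfz. The T cell marker CD3E fell with ATRA, from 1.26 to 0.522 FPM on average, and the myeloid marker S100A9 rose from 0.148 to 0.733 FPM. The part of these low markers and of the plasma cell marker changes in the results was not tested.

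The first question was what ATRA alone did to the synthetases. Of 19 cytosolic genes 15 rose and 0 fell, while of 16 mitochondrial genes 3 rose and 2 fell. By edgeR and by DESeq2, 0 cytosolic genes fell as well. Among all 15827 genes tested, 48.7% were called, 21.3% as higher and 27.4% as lower (limma, Benjamini-Hochberg adjusted p under 0.05). The median log2 fold change was 0.30 for the cytosolic genes, 0.01 for the mitochondrial genes and -0.03 for all genes. Differences between the sets are described by these counts and medians and were not tested. In bulk RNA, fewer cells of a kind and less RNA per cell cannot be told apart. No label says that the libraries came from separate cultures, and the p-values therefore reflect no more than the library-to-library spread, which may be technical.

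**Figure D1:**
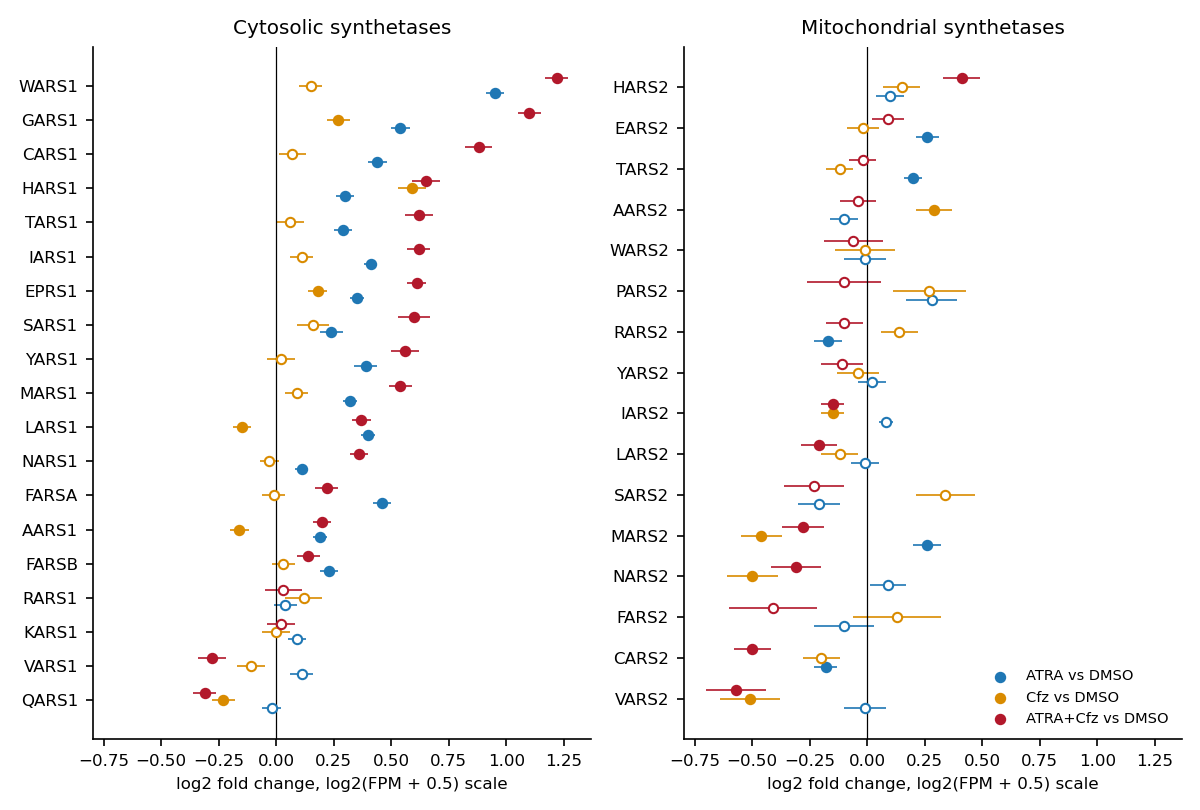
Log2 fold changes against DMSO on the log2(FPM + 0.5) scale for 19 cytosolic (left) and 16 mitochondrial (right) synthetases, with bars of 1 standard error and filled points for genes called by limma. With ATRA, 15 cytosolic genes lie to the right as filled points, while all 16 mitochondrial points lie within 0.3 of 0. WARS1 and GARS1 lie farthest right with ATRA+Cfz.

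Of the 7 enzymes of the multisynthetase complex, 4 rose with ATRA and 0 fell. IARS1, the isoleucine enzyme, measured 292, 309 and 305 FPM in DMSO 1 to 3, 408, 395 and 404 FPM in ATRA 1 to 3, 325 FPM with Cfz and 465 FPM with ATRA+Cfz. Every ATRA library lay above every DMSO library (a rise of 0.41 ± 0.03 SE on the log2 scale, with a Benjamini-Hochberg adjusted p of 1.4e-06 by limma). EPRS1, a fused enzyme that charges both glutamate and proline tRNAs, measured 606.5, 604 and 611 FPM with DMSO, 764, 767 and 784 FPM with ATRA, 686.5 FPM with Cfz and 928 FPM with ATRA+Cfz. The groups did not overlap, and the ATRA change was 0.35 ± 0.03. LARS1 (0.40 ± 0.03), the leucine enzyme, which also acts as a leucine sensor for mTORC1, and MARS1 (0.32 ± 0.03), the methionine enzyme, rose as well. The 3 complex members that were not called were KARS1 for lysine (0.09), RARS1 for arginine (0.04) and QARS1 for glutamine (-0.02).

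Of the 12 cytosolic enzymes outside the complex, 11 rose with ATRA and 0 fell. WARS1, the tryptophan enzyme and also a known interferon-gamma-induced gene, showed the widest change. It measured 55.0, 52.9 and 53.9 FPM with DMSO, 105, 103 and 105 FPM with ATRA, 59.7 FPM with Cfz and 126 FPM with ATRA+Cfz. The ATRA libraries were 1.93-fold higher (0.95 ± 0.04 SE, limma, Benjamini-Hochberg adjusted p = 5.3e-09) and did not overlap the controls. GARS1, which charges glycine tRNA in the cytosol and, from an alternative start, in mitochondria, measured 179, 175 and 188 FPM with DMSO, 264, 255 and 271 FPM with ATRA, 218 FPM with Cfz and 387 FPM with ATRA+Cfz. Its rise was 0.54 ± 0.04. KARS1, counted above as cytosolic, is likewise known to serve both compartments.

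CARS1, the cysteine enzyme, measured 54.0, 55.0 and 58.5 FPM with DMSO, 74.6, 76.7 and 76.6 FPM with ATRA, 58.6 FPM with Cfz and 103 FPM with ATRA+Cfz. The ATRA rise of 0.44 ± 0.04 left no overlap between the groups. FARSA and FARSB encode the alpha and beta subunits of the phenylalanine enzyme, which are assembled into one protein. FARSA measured 72.3, 70.4 and 69.7 FPM with DMSO, 97.9, 97.2 and 97.2 FPM with ATRA, 70.4 FPM with Cfz and 82.6 FPM with ATRA+Cfz. FARSA rose by 0.46 ± 0.04 and FARSB by 0.23 ± 0.04. The other free enzymes that rose were YARS1 for tyrosine (0.39), HARS1 for histidine (0.30), TARS1 for threonine (0.29), SARS1 for serine (0.24), AARS1 for alanine (0.19) and NARS1 for asparagine (0.11). VARS1 for valine was not called (0.11, limma, Benjamini-Hochberg adjusted p = 0.067).

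**Figure D2:**
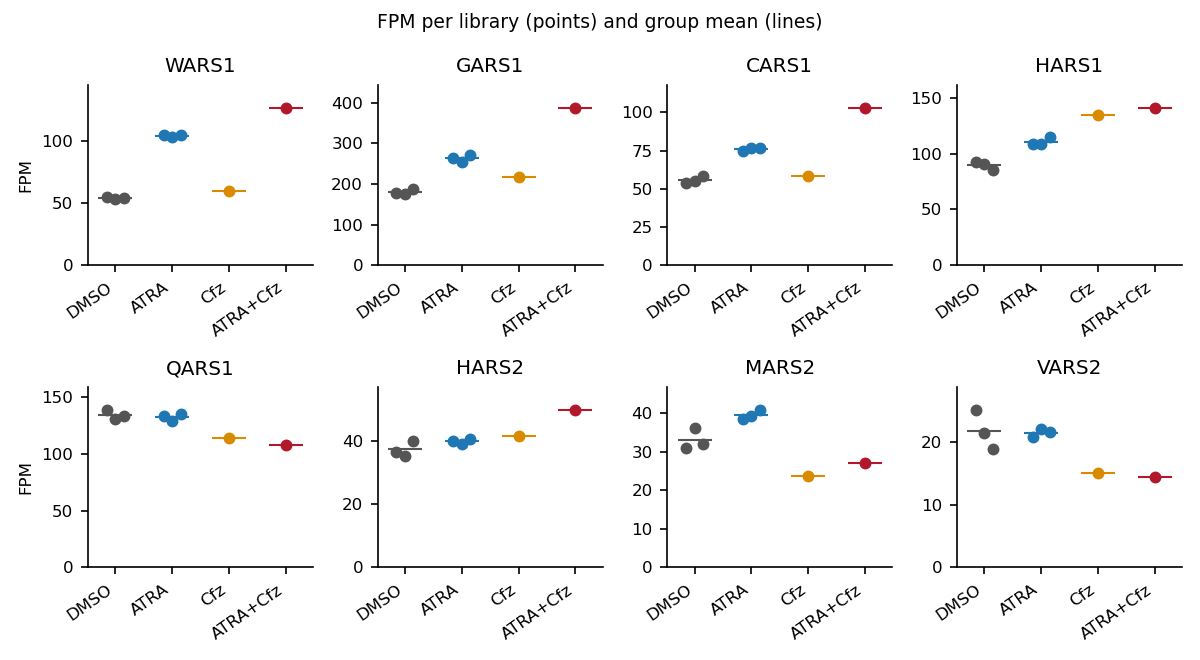
FPM per library (points) with the group mean (line) for 8 synthetases, each on its own axis from 0. WARS1, GARS1 and CARS1 step up with ATRA and further with ATRA+Cfz, HARS1 is also high with Cfz at 135 FPM, and QARS1, MARS2 and VARS2 are lowest in the 2 libraries that had carfilzomib.

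Of the cytosolic genes, 13 are listed as known targets of the amino acid response, a list drawn up with earlier results of these data known. Among these 13 genes, 12 rose with ATRA and 0 fell, with a median of 0.35. Of the 6 other cytosolic genes (KARS1, QARS1, RARS1, FARSA, FARSB and HARS1), 3 rose and 0 fell, with a median of 0.16. The response acts through C/EBP-ATF elements, which hold an 8-base core written TGATGNAA. RefSeq promoter windows on GRCh38.p14, from 250 bases before to 50 bases after an annotated start, were found for 30 of the 35 synthetases. On either strand, 7 of 16 cytosolic genes with a window held this core (AARS1, CARS1, GARS1, IARS1, MARS1, NARS1 and TARS1), and 1 of 14 mitochondrial genes did (YARS2). Of all 35116 windows, 3.62% held it. A gene can have several windows, so shares of genes and of windows are not on the same footing, and a match is a description of letters, not a bound site.

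Each match is shown in 30 bases on the gene's own strand, 5′ to 3′, so that the shared core can be compared between genes. Capitals mark the 8 matching bases, which read TTGCATCA or TTTCATCA where the core lies on the opposite strand.
AARS1 (chr16:70289675-70289704, minus strand): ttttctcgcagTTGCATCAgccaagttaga
CARS1 (chr11:3057407-3057436, minus strand): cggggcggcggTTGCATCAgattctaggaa
GARS1 (chr7:30594834-30594863, plus strand): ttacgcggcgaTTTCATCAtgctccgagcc
IARS1 (chr9:92293692-92293721, minus strand): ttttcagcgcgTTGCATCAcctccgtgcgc
MARS1 (chr12:57488053-57488082, plus strand): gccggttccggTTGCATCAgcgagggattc
NARS1 (chr18:57621804-57621833, minus strand): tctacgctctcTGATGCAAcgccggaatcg
TARS1 (chr5:33440956-33440985, plus strand): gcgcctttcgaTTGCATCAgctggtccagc
YARS2 (chr12:32756076-32756105, minus strand): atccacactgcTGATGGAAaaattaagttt
The first matching base lies 2 bases upstream of the start in CARS1, 4 in MARS1, 13 in IARS1 and 33 in GARS1, 2 bases downstream in TARS1 and 14 in NARS1, and 187 bases upstream in AARS1. In YARS2, the mitochondrial tyrosine enzyme, it lies 197 bases upstream. All 7 cytosolic genes shown rose with ATRA, and YARS2 was not called (0.02 ± 0.06). Of all 19 cytosolic genes 15 rose, among them genes without a match in their windows such as WARS1. Windows were at hand for 16 of the 19, and whether matches go with the rises was not tested. An interferon-stimulated response element core, which is GAAA followed after any 2 bases by a further GAAA, was held by 3.57% of windows and by 2 synthetases, WARS1 and the mitochondrial glutamate enzyme EARS2. The WARS1 match, 55 bases upstream of one of its starts, is shown because WARS1 had the widest change.
WARS1 (chr14:100375383-100375412, minus strand): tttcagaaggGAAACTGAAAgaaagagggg
The E-box core CACGTG was in 7.26% of windows, in 1 cytosolic (IARS1) and 3 mitochondrial genes (CARS2, EARS2 and MARS2). The antioxidant response core TGACNNNGC was in 13.3% of windows, in 4 cytosolic and 2 mitochondrial genes.

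Among the mitochondrial enzymes, the 3 ATRA rises were EARS2, MARS2 and TARS2. EARS2 measured 68.3, 70.0 and 62.9 FPM with DMSO, 79.9, 82.95 and 77.5 FPM with ATRA, 66.3 FPM with Cfz and 71.4 FPM with ATRA+Cfz. Its ATRA rise was 0.26 ± 0.05, with no overlap. MARS2, for methionine, measured 31.1, 36.1 and 32.1 FPM with DMSO and 38.7, 39.4 and 40.8 FPM with ATRA, and lay lower in both carfilzomib libraries, at 23.9 FPM with Cfz and 27.2 FPM with ATRA+Cfz. TARS2, for threonine, measured 49.6, 48.5 and 49.8 FPM with DMSO, 56.7, 55.3 and 58.0 FPM with ATRA, 45.5 FPM with Cfz and 48.7 FPM with ATRA+Cfz. The ATRA changes were 0.26 ± 0.06 for MARS2 and 0.20 ± 0.04 for TARS2.

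The 2 mitochondrial genes called lower with ATRA were CARS2 and RARS2. CARS2, for cysteine, measured 59.2, 55.0 and 55.8 FPM with DMSO, 52.2, 50.8 and 46.6 FPM with ATRA, 49.1 FPM with Cfz and 39.8 FPM with ATRA+Cfz. RARS2, for arginine, measured 46.5, 45.8 and 52.3 FPM with DMSO, 43.5, 43.8 and 40.7 FPM with ATRA, 53.1 FPM with Cfz and 45.0 FPM with ATRA+Cfz. Both falls were small, by 0.18 ± 0.05 for CARS2 and by 0.17 ± 0.06 for RARS2 (limma, Benjamini-Hochberg adjusted p = 0.015 and 0.031). The count of 2 falls became 1 without DMSO 1, DMSO 3, ATRA 1 or ATRA 2 and 0 without ATRA 3, and the count of 3 rises became 5 without DMSO 3. The other 11 mitochondrial genes were not called, with log2 fold changes from -0.21 for SARS2 to 0.28 for PARS2.

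With carfilzomib alone, the synthetases split in both directions. Of 19 cytosolic genes 3 rose and 3 fell, and of 16 mitochondrial genes 1 rose and 4 fell. Across all genes 24.9% were called, 7.94% as higher and 17% as lower (limma). The higher and lower calls over all genes depended on scaling, at 1257 and 2691 as deposited, 1603 and 1856 with median-ratio scaling, 1499 and 2057 with edgeR and 1069 and 944 with DESeq2. The medians were 0.06 for cytosolic, -0.03 for mitochondrial and -0.08 for all genes. The mitochondrial median turned to 0.03 with median-ratio scaling and to 0.01 with edgeR. The Cfz and ATRA+Cfz groups are 1 library each, assumed to vary like the others, so their differences have no replicate check.

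HARS1, the histidine enzyme, was the cytosolic gene with the widest carfilzomib change. It measured 92.9, 90.8 and 85.3 FPM with DMSO, 135 FPM with Cfz, 109, 108 and 115 FPM with ATRA and 141 FPM with ATRA+Cfz. The Cfz library lay 1.5-fold above the controls (0.59 ± 0.06 SE, limma, Benjamini-Hochberg adjusted p = 7.2e-05), and also above all 3 ATRA libraries. GARS1 (0.27 ± 0.05) and EPRS1 (0.18 ± 0.04) rose too. The count of 3 rises became 8 without DMSO 3 and 7 with median-ratio scaling. Without DMSO 3 the cytosolic falls became 4. Calls over all genes also rose without that library, from 1257 higher and 2691 lower to 1685 and 3764.

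The cytosolic falls with Cfz were QARS1, AARS1 and LARS1. QARS1 measured 138, 130 and 133 FPM with DMSO, 133, 129 and 135 FPM with ATRA, 114 FPM with Cfz and 108 FPM with ATRA+Cfz. Both carfilzomib libraries lay below all 6 others, and QARS1 fell by 0.23 ± 0.05 with Cfz. AARS1 measured 206, 205 and 204 FPM with DMSO, 232, 236 and 232.5 FPM with ATRA, 183 FPM with Cfz and 235 FPM with ATRA+Cfz. LARS1 measured 239, 239 and 243 FPM with DMSO, 315, 318 and 321 FPM with ATRA, 216 FPM with Cfz and 311 FPM with ATRA+Cfz. For both, the Cfz library was the lowest of all 8, while ATRA+Cfz was near the ATRA libraries. AARS1 fell by 0.16 ± 0.04 and LARS1 by 0.15 ± 0.04. Neither was called with median-ratio scaling, edgeR or DESeq2, and LARS1 also lost its call without ATRA 1, ATRA 2 or ATRA 3 (adjusted p up to 0.38 over all alternatives).

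VARS2, NARS2, MARS2 and IARS2, the mitochondrial enzymes for valine, asparagine, methionine and isoleucine, were called lower with Cfz. VARS2 measured 25.1, 21.5 and 18.9 FPM with DMSO, 20.9, 22.1 and 21.6 FPM with ATRA, 15.1 FPM with Cfz and 14.5 FPM with ATRA+Cfz. NARS2 measured 25.1, 21.7 and 24.7 FPM with DMSO, 23.7, 26.2 and 26.4 FPM with ATRA, 16.6 FPM with Cfz and 19.02 FPM with ATRA+Cfz. In both genes the 2 carfilzomib libraries lay below all 6 others. The falls were by 0.51 ± 0.13 for VARS2, by 0.50 ± 0.11 for NARS2 and by 0.46 ± 0.09 for MARS2 (limma, Benjamini-Hochberg adjusted p = 0.016, 0.0056 and 0.0034). IARS2 fell by 0.15 ± 0.05 and lost its call with 8 of 14 alternatives, among them leaving out DMSO 1, DMSO 2 or any ATRA library.

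AARS2, the mitochondrial alanine enzyme, was the 1 mitochondrial gene called higher with Cfz. It measured 33.4, 31.4 and 30.1 FPM with DMSO, 29.9, 29.6 and 28.8 FPM with ATRA, 38.7 FPM with Cfz and 30.8 FPM with ATRA+Cfz. The Cfz library stood above the other 7 (0.29 ± 0.08, limma, Benjamini-Hochberg adjusted p = 0.021), while ATRA+Cfz did not. Without DMSO 3, 4 mitochondrial genes were called higher and 6 lower. Calls over all genes then rose as well, from 1257 higher and 2691 lower to 1685 and 3764. With DESeq2 the Cfz calls of AARS2, VARS2, NARS2 and QARS1 were lost (Benjamini-Hochberg adjusted p of 0.06, 0.069, 0.05 and 0.16), each in the same direction.

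After both drugs the sets lay farthest apart. With ATRA+Cfz against DMSO, 15 cytosolic genes rose and 2 fell, while 1 mitochondrial gene rose and 6 fell. All genes gave 50.6% called, 20% as higher and 30.5% as lower (limma). The medians were 0.54 for cytosolic, -0.13 for mitochondrial and -0.05 for all genes. WARS1 was 2.33-fold (1.22 ± 0.05), GARS1 2.14-fold (1.10 ± 0.05) and CARS1 1.83-fold (0.88 ± 0.06) above DMSO, and each had its highest value of all libraries there. IARS1 (0.62), TARS1 (0.62), EPRS1 (0.61), SARS1 (0.60), YARS1 (0.56) and MARS1 (0.54) also rose. FARSB rose by 0.14 ± 0.05 only (limma, Benjamini-Hochberg adjusted p = 0.046), and it lost the call without DMSO 1, DMSO 2 or any ATRA library.

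The cytosolic genes that fell with ATRA+Cfz were QARS1 (by 0.31 ± 0.05) and VARS1 (by 0.28 ± 0.06). VARS1 measured 279, 274 and 246 FPM with DMSO, 285, 288 and 287 FPM with ATRA, 246 FPM with Cfz and 219 FPM with ATRA+Cfz. The ATRA+Cfz library was the lowest of all 8, and DMSO 3 lay near the Cfz library. VARS1 is on the list of amino acid response targets, and the 12 other genes of that list rose, with a median of 0.60 over all 13. Of the 6 other cytosolic genes, 3 rose (HARS1, FARSA and FARSB) and 1 fell (QARS1), with a median of 0.09.

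Among mitochondrial enzymes after both drugs, VARS2 fell by 0.57 ± 0.13, CARS2 by 0.50 ± 0.08, NARS2 by 0.31 ± 0.11, MARS2 by 0.28 ± 0.09, LARS2 by 0.21 ± 0.08 and IARS2 by 0.15 ± 0.05. The count of 6 falls became 2 with median-ratio scaling, edgeR and DESeq2, where VARS2 and CARS2 were still called. LARS2 (without DMSO 1, DMSO 2 or any ATRA library), MARS2 (without DMSO 2) and NARS2 (without DMSO 1) also lost their calls. The only rise was HARS2, the mitochondrial histidine enzyme, which measured 36.6, 35.2 and 40.0 FPM with DMSO, 40.1, 39.1 and 40.6 FPM with ATRA, 41.5 FPM with Cfz and 49.6 FPM with ATRA+Cfz. Its ATRA+Cfz library stood above the other 7 (0.41 ± 0.08, limma, Benjamini-Hochberg adjusted p = 0.0011).

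HARS1 and HARS2 lie head to head on chromosome 5 and are transcribed away from each other. Their RefSeq starts on GRCh38.p14 are separated by 84 bases with 59.5% G and C, shown because both histidine genes had high values in the libraries with carfilzomib.
HARS1 to HARS2 (chr5:140691371-140691454, plus strand): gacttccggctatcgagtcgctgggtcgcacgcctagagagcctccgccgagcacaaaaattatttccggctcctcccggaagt
The carfilzomib change without ATRA was 0.59 for HARS1 and 0.15 for HARS2 (not called), and in cells given ATRA it was 0.35 ± 0.06 and 0.31 ± 0.08, both called. No source used here gives the strand setting of the counting. In GENCODE release 29, 11 of the 35 synthetases overlap a coding gene on the opposite strand, HARS1 with HARS2, WARS1 with WDR25 and MARS1 with DDIT3 among them, and 3 overlap a coding gene on their own strand. Values of these genes may share reads with their neighbours.

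Carfilzomib in cells that received ATRA was read from ATRA+Cfz against ATRA. Here 10 cytosolic genes rose and 3 fell, and 1 mitochondrial gene rose and 6 fell, against 30.9% of all genes called, 10.6% as higher and 20.2% as lower (limma). The medians were 0.21, -0.21 and -0.04 for cytosolic, mitochondrial and all genes. GARS1 (0.56 ± 0.05) and CARS1 (0.43 ± 0.06) had the widest rises, followed by SARS1 (0.36), HARS1 (0.35) and TARS1 (0.33). VARS1 (-0.39 ± 0.06), QARS1 (-0.29 ± 0.05) and FARSA (-0.24 ± 0.05) fell. FARSB, the partner subunit of FARSA, was not called (-0.09 ± 0.05). The mitochondrial falls were VARS2 (-0.56), MARS2 (-0.53), NARS2 (-0.41), CARS2 (-0.32), IARS2 (-0.23) and TARS2 (-0.22), and TARS2 lost its call without ATRA 1 or ATRA 3.

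ATRA after a carfilzomib pulse was read from ATRA+Cfz against Cfz, 1 library each. In this comparison 13 cytosolic genes were called higher and 0 lower, and 0 mitochondrial genes higher and 3 lower, against 30.4% of all genes, 12.8% as higher and 17.6% as lower (limma). Of the mitochondrial genes, 6 had an unadjusted p under 0.05, and edgeR called 1 of 16 higher and DESeq2 called 0. Of the cytosolic genes, edgeR and DESeq2 called 0 lower. The widest rises were WARS1 (1.08 ± 0.07), GARS1 (0.83 ± 0.07) and CARS1 (0.80 ± 0.08). The 13 genes were among the 15 that rose with ATRA alone. The 2 others, FARSB (0.12) and HARS1 (0.06), were not called here. SARS2 (-0.58), AARS2 (-0.33) and CARS2 (-0.30), for serine, alanine and cysteine, were lower, and 0 mitochondrial genes were called lower by DESeq2. CARS2 lost its call without ATRA 2. Without DMSO 3, 1 cytosolic gene was called lower and 1 mitochondrial gene higher.

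Whether ATRA acted differently after carfilzomib was tested by the interaction, the ATRA effect after a Cfz pulse minus the ATRA effect without it. None of the 35 synthetases was called by limma, although 9 had an unadjusted p under 0.05 and the smallest Benjamini-Hochberg adjusted p was 0.0504. Called genes made up 2.3% of all genes, 0.992% as higher and 1.31% as lower. edgeR called 0 of 35 (9 at an unadjusted p under 0.05). DESeq2 gave an adjusted p for 25 of the 35, 19 cytosolic and 6 mitochondrial, and called 0 of them (6 of the 35 had an unadjusted p under 0.05). Without DMSO 3, 7 synthetases passed, with AARS1, CARS1, GARS1, NARS1 and TARS1 higher and FARSA and VARS1 lower. Without that library calls over all genes also rose, to 951 higher and 1035 lower, which is 12.5% of all genes, 6.01% as higher and 6.54% as lower. Without ATRA 1, ATRA 2 or ATRA 3 they fell to 0 higher and 2 lower, 2 and 6, and 5 and 11. With a filter at 2 FPM or a robust variance estimate, CARS1 and NARS1 passed. For the 9 genes with an unadjusted p under 0.05, the differences were 0.36 ± 0.09 for CARS1, 0.29 ± 0.08 for GARS1, 0.27 ± 0.06 for NARS1, 0.27 ± 0.08 for TARS1, 0.17 ± 0.06 for AARS1, -0.66 ± 0.22 for PARS2, -0.27 ± 0.09 for VARS1, -0.24 ± 0.09 for HARS1 and -0.23 ± 0.07 for FARSA. Of the 13 amino acid response targets, 12 had a positive and 1 a negative difference, with a median of 0.15. All 6 other cytosolic genes had a negative one, with a median of -0.12. Of the 16 mitochondrial genes 2 had a positive and 14 a negative difference, with a median of -0.08, beside 0.01 for all genes. The target list was drawn up with earlier results of these data known. All these differences rest on the same single Cfz and ATRA+Cfz libraries, so the signs are not independent and were not tested.

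**Figure D3:**
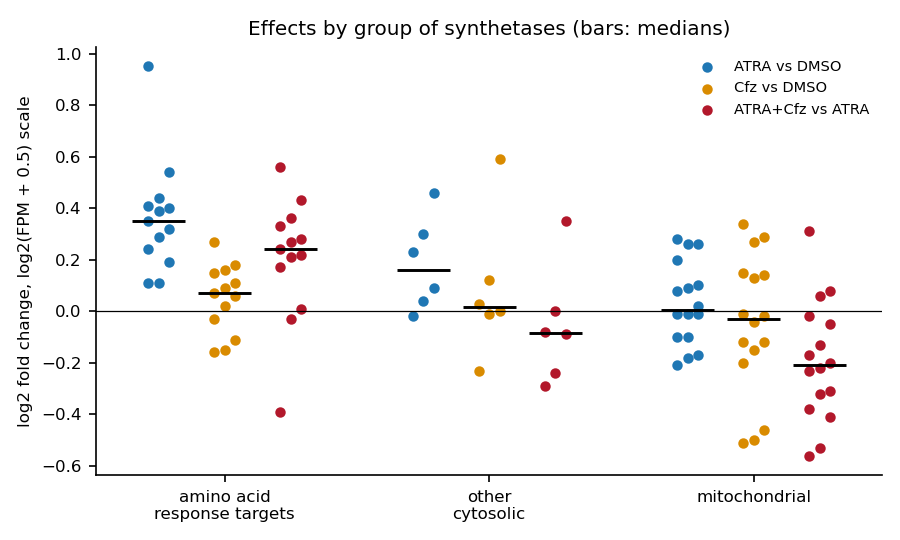
Log2 fold change of each synthetase, on the log2(FPM + 0.5) scale, for ATRA against DMSO, Cfz against DMSO and ATRA+Cfz against ATRA, with 1 point per gene and a bar at the median, for 13 amino acid response targets, 6 other cytosolic and 16 mitochondrial genes. The medians are 0.35, 0.07 and 0.24 for the targets, 0.16, 0.01 and -0.08 for the other cytosolic genes, and 0.01, -0.03 and -0.21 for the mitochondrial genes.

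To set the compartments side by side in each library, the mean log2(FPM + 0.5) of the 19 cytosolic genes relative to DMSO was compared with that of the 16 mitochondrial genes. The cytosolic minus mitochondrial difference was -0.042, 0.011 and 0.031 in DMSO 1 to 3 (SD 0.038, n = 3). It was 0.29, 0.275 and 0.268 in ATRA 1 to 3 (mean 0.278, SD 0.011, n = 3), 0.11 in Cfz and 0.591 in ATRA+Cfz. All 3 ATRA libraries and ATRA+Cfz lay above every control, and Cfz lay above the controls and below the ATRA libraries. In the ATRA libraries the cytosolic mean rose by 0.308 and the mitochondrial mean was 0.03, whereas in ATRA+Cfz they were 0.429 and -0.162. These means are a description with no test.

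**Figure D4:**
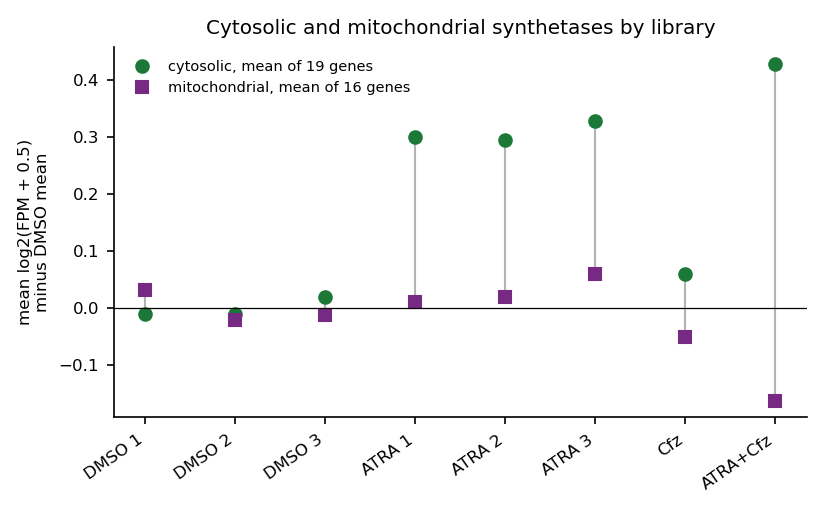
Mean log2(FPM + 0.5) of 19 cytosolic (circles) and 16 mitochondrial (squares) synthetases in each library, minus the DMSO mean, with a line joining the sets of 1 library. The sets lie together in the DMSO libraries and are 0.268 to 0.29 apart in the ATRA libraries, 0.11 apart in Cfz and 0.591 apart in ATRA+Cfz.

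The same contrast was read within amino acids, for the 13 amino acids that have, among the 35, 1 cytosolic and 1 mitochondrial enzyme serving that amino acid alone. Phenylalanine, with 2 cytosolic subunits, and glutamate and proline, which share the fused cytosolic enzyme EPRS1, were left out. With ATRA the cytosolic gene had the larger log2 change in 13 of 13 pairs, with a median gap of 0.29 and a range of 0.02 to 0.96. The widest gap was between WARS1 and WARS2, which measured 13.2, 11.2 and 13.2 FPM with DMSO, 12.3, 11.7 and 13.2 FPM with ATRA, 12.4 FPM with Cfz and 12.0 FPM with ATRA+Cfz. With Cfz the cytosolic gene had the larger change in 9 of 13 pairs (median gap 0.18), and with ATRA+Cfz against DMSO again in 13 of 13 (median gap 0.67). The gaps in that comparison ranged from 0.13 to 1.38. The pairs share libraries and are not independent, so no test was made. Of the amino acids left out, proline differed in order with Cfz, where the log2 change was 0.18 for EPRS1 and 0.27 for PARS2 (not called). With ATRA these changes were 0.35 and 0.28, and with ATRA+Cfz 0.61 and -0.10. For EARS2, the mitochondrial glutamate enzyme, they were 0.26 with ATRA, -0.02 with Cfz and 0.09 with ATRA+Cfz.

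Beyond the synthetases, the other amino acid response genes rose with ATRA in 16 of 20 tested (1 fell), beside 21.3% of all genes called higher. Their median log2 changes were 0.41 with ATRA, 0.21 with Cfz and 0.80 with ATRA+Cfz, beside -0.03, -0.08 and -0.05 for all genes. With Cfz 15 of the 20 had a positive and 5 a negative change, SHMT2 (-0.28) among the latter. With ATRA+Cfz 18 had a positive and 2 a negative change. ATF4, the transcription factor of the response, measured 214, 217 and 237 FPM with DMSO, 272, 274 and 275 FPM with ATRA, 262 FPM with Cfz and 372 FPM with ATRA+Cfz. It rose in all 3 comparisons (0.30, 0.24 and 0.74). DDIT3, the stress factor CHOP, which overlaps MARS1, reached 22.2 FPM with ATRA+Cfz against 5.62 to 6.29 FPM with DMSO (1.83 ± 0.14). CHAC1, a glutathione-degrading enzyme (2.06 ± 0.30), ASNS, asparagine synthetase (0.86 ± 0.08), and SLC7A11, the cystine transporter subunit (3.10 ± 0.08), rose with ATRA+Cfz as well. VLDLR, a lipoprotein receptor, was the gene that fell with ATRA (-0.66).

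The scaffolds of the multisynthetase complex were read beside its enzymes. Of AIMP1, AIMP2 and EEF1E1, only EEF1E1 was called higher with ATRA (0.13 ± 0.05), and that call was lost without DMSO 1, DMSO 2, ATRA 1 or ATRA 3. With ATRA+Cfz, AIMP2 (-0.37 ± 0.09) and EEF1E1 (-0.25 ± 0.07) fell. Of the eIF2 kinases, EIF2AK1, the haem-regulated kinase, rose with ATRA (0.41). EIF2AK3 (-0.20 ± 0.05), EIF2AK2 (-0.16 ± 0.06) and EIF2AK4 were called lower. EIF2AK4, the GCN2 kinase that senses uncharged tRNA, measured 121, 119 and 95.8 FPM with DMSO and 97.1, 93.3 and 95.8 FPM with ATRA. DMSO 3 lay within the ATRA range, and the call as lower (-0.22) was lost without DMSO 1, DMSO 2 or any 1 ATRA library. In the list of 6 kinases and sensors 1 rose and 3 fell with ATRA, and the 3 falls became 1 without any single DMSO 1, DMSO 2 or ATRA library.

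Of 4 partners of mitochondrial charging, 3 rose with ATRA and 0 fell. QRSL1 (0.29), GATB (0.35) and GATC (0.33), the subunits of the amidotransferase that makes glutamine tRNA in mitochondria, were those that rose. MTFMT, which formylates the initiator methionine tRNA, was called lower with Cfz (-0.39) and with ATRA+Cfz (-0.39). Of 8 mitochondrial translation factors, 6 rose with ATRA and 0 fell, among them the elongation factors TUFM (0.30) and GFM1 (0.17) and the recycling factor GFM2 (0.48). Of 5 cytosolic elongation factors, 4 rose and 0 fell with ATRA. Of all genes, 21.3% were called higher and 27.4% lower with ATRA, and whether these lists differ from that background was not tested.

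Interferon-gamma response genes were read beside WARS1. With ATRA, 2 of 6 tested rose and 1 fell (2 fell without DMSO 3), a share near the 48.7% of all genes called. IRF1, a transcription factor induced by interferon, measured 83.6, 82.2 and 82.4 FPM with DMSO, 199.5, 207 and 194 FPM with ATRA, 79.4 FPM with Cfz and 229 FPM with ATRA+Cfz (1.27 ± 0.04 with ATRA). The libraries with high IRF1 were those with high WARS1. GBP1, an interferon-induced GTPase, rose by 0.67 ± 0.06 with ATRA.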

How the data were processed

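Per the labels' protocols, an RNeasy kit gave the total RNA, and libraries followed the Illumina standard. The tools were kallisto 0.46.2, fastp 0.20.0 and DESeq2 without a version, per the submitters' processing notes. Genome build, annotation and strand setting were not given in the sources used here. Deposited by the authors were values in FPM, a CPM unit, for 4 lanes of each of 8 libraries. Lanes were averaged and each library counted once, since 0 of 280 lane tests on the synthetases passed Bonferroni at 0.05. Whole reads could be recovered for 100% of values within 0.01 read. edgeR 4.0.16 on these reads called 3747 genes higher and 4001 lower with ATRA, and limma 3368 and 4336.

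Tests were made with limma 3.58.1 (R 4.3.3, intensity trend) on log2(FPM + 0.5), for genes with a mean of group means of at least 0.5 FPM, with all 8 libraries in 1 fit (4 residual and 7.2 prior degrees of freedom). Calls are at a Benjamini-Hochberg adjusted p under 0.05 over 15827 genes. Fold changes refer to log2(FPM + 0.5), where changes of low genes appear smaller than they are. Symbols came from the deposited table for 17006 gene IDs and from gene name tables for 7163.

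The synthetases, companion lists, tests and alternatives were chosen with earlier results of these data known. Values in every library are given, in each set, for the 5 largest rises and 3 largest falls among genes called in each treatment against DMSO; other genes with such values (WARS2, IRF1, ATF4 and PSAT1) were chosen after their values were seen. DMSO and ATRA libraries share replicate numbers, but deviations of same-numbered libraries correlated at 0 to 0.008. No shared replicate effect was seen, and the main fit did not pair them. That check cannot show whether same-numbered libraries were handled together. Alternatives changed the pseudocount (0.1 or 1 FPM), the filter (none or 2 FPM), the scaling, the tool (edgeR, DESeq2 1.42.0), the variance estimate and the libraries. Some genes of the companion lists are not reported here by name, and counts include them.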

Additional observations from a re-analysis of the deposited data

Results flagged for a closer look

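PSAT1, the serine synthesis aminotransferase and an amino acid response gene, had an ATRA effect that was larger after carfilzomib than without it, by 0.41 ± 0.07 on the log2 scale in the interaction test (limma, Benjamini-Hochberg adjusted p = 0.024). It measured 69.1, 70.5 and 72.1 FPM with DMSO, 93.7, 94.5 and 95.3 FPM with ATRA, 78.5 FPM with Cfz and 140 FPM with ATRA+Cfz. PSAT1 lost the call with DESeq2 and without ATRA 1, ATRA 2 or ATRA 3, with adjusted p values up to 0.085 over 14 alternatives and the difference between 0.38 and 0.42. Of the 20 amino acid response genes tested, it was the only one called in the interaction. Without DMSO 3, 6 were called higher and 1 lower, but calls over all genes then rose from 2.3% to 12.5%.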

How the results depend on the processing

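Of 1328 alternatives for 92 called results of single genes, 1254 kept the direction and the call. A further 74 kept the direction and lost the call, and 0 reversed. Many of these alternatives could not reverse a result. The filters, the robust estimate and leaving out a library of a group outside the comparison do not alter a limma log2 fold change. Of 362 alternatives for counts and set means, 328 stayed within 1.5 times the main count or within 1 SD.

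With ATRA, 5 mitochondrial genes were called higher with the filter at 2 FPM, median-ratio scaling or edgeR (3 to 5 leaving out 1 library at a time), and lower calls became 1 with median-ratio scaling or edgeR and 0 with DESeq2 (0 to 2 leaving out 1 library). With Cfz, cytosolic higher calls became 7 with median-ratio scaling (3 to 8 leaving out 1 library). Cytosolic lower calls with Cfz became 1 with median-ratio scaling or edgeR and 0 with DESeq2 (2 to 4 leaving out 1 library). Mitochondrial higher calls with Cfz became 2 with edgeR and 0 with DESeq2 (1 to 4 leaving out 1 library). Mitochondrial lower calls with Cfz became 1 with DESeq2 (3 to 6 leaving out 1 library). With ATRA+Cfz, mitochondrial lower calls against DMSO became 2 with median-ratio scaling, edgeR or DESeq2, and against ATRA 3 with DESeq2. Against Cfz, mitochondrial higher calls became 1 with edgeR (0 to 1 leaving out 1 library), lower calls 0 with DESeq2, and cytosolic lower calls ranged from 0 to 1 leaving out 1 library. In the interaction, cytosolic higher calls became 2 with the filter at 2 FPM or the robust estimate (0 to 5 leaving out 1 library), and lower calls ranged from 0 to 2. The cytosolic minus mitochondrial difference in ATRA+Cfz was 0.671 with medians in place of means. The causes were not tested.

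With the replicate block (6 DMSO and ATRA libraries), cytosolic calls with ATRA were 15 higher and 0 lower and mitochondrial calls 3 higher and 2 lower, as without it, and the block changed no call of the 20 synthetases called with ATRA.

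The Cfz and ATRA+Cfz groups are single libraries, and no test shows how such libraries vary. Genes at 83 to 173 reads, PARS2 and FARS2, had standard errors of 0.11 to 0.26, so changes near those sizes were not detectable. Overlapping genes may share reads.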

Other observations

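By catalytic class, 6 of 9 cytosolic class I and 8 of 9 class II enzymes rose with ATRA, beside 21.3% of all genes. EPRS1 holds a domain of each class. With ATRA+Cfz against DMSO, the median log2 change was -0.15 for 9 mitochondrial class I enzymes. It was -0.10 for 7 mitochondrial class II enzymes and -0.05 for all genes. These counts and medians were not tested against each other.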
